A study of Homo sapiens with 6 samples.

Results

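The genes described here are the CDK inhibitors and the retinoblastoma (RB) pocket proteins, 10 of the 28278 genes listed in the count files. They were taken by symbol as members of these gene families. The CIP/KIP inhibitors are CDKN1A (p21), CDKN1B (p27) and CDKN1C (p57). The INK4 inhibitors are CDKN2A (p16 and p14ARF), CDKN2B (p15), CDKN2C (p18) and CDKN2D (p19), and the pocket proteins are RB1 (pRB), RBL1 (p107) and RBL2 (p130). All 10 were among the 15307 genes with enough counts to be tested.

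HT29, a human colorectal adenocarcinoma cell line, was treated with an siRNA against the glycolytic enzyme ALDOA (siALDOA) or with a scrambled siRNA (siControl). RNA from 3 biological replicates of each group was taken after 48 h and sequenced. The RNA-Seq therefore covers 1 cell line at 1 time after treatment, the control cells also carried an siRNA, and untransfected cells were not analysed here. The labels name the libraries biological replicates but do not say whether they came from separate cultures, so p-values measure the spread between these libraries.

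CDK inhibitors bind cyclin-dependent kinases and slow the passage from G1 to S phase. INK4 proteins bind CDK4 and CDK6, whereas CIP/KIP proteins bind cyclin-CDK complexes more broadly. Unphosphorylated pocket proteins bind E2F transcription factors and hold down the genes of DNA replication, pRB mostly with the activating E2Fs and p107 and p130 with E2F4 in the DREAM complex. Cyclin D and cyclin E kinases phosphorylate the pocket proteins and release E2F. In the intestinal epithelium, p21 and p27 are known for their part in the exit of cells from the cycle, and p130 is the pocket protein of quiescent cells.

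The promoter windows of 3 members are shown, those of CDKN1A and RBL2 because both genes passed the test described below and that of RBL1 because it alone among the members with a window held E2F words. Each window runs from 250 bases before to 50 bases after the RefSeq start on GRCh38.p14 and is written 5′ to 3′ on the strand of the gene. For these members the RefSeq start is the start of the canonical GENCODE transcript. CDKN1A lies on the plus strand at chr6:36678464-36678763, and capitals mark the GC box GGGCGG. RBL1 lies on the minus strand at chr20:37095948-37096247, and capitals mark the E2F words TTTCGCGC and TTTGGCGC. RBL2 lies on the plus strand at chr16:53434221-53434520, and capitals mark GGGCGG and the cell cycle homology region (CHR) word TTTGAA.
CDKN1A: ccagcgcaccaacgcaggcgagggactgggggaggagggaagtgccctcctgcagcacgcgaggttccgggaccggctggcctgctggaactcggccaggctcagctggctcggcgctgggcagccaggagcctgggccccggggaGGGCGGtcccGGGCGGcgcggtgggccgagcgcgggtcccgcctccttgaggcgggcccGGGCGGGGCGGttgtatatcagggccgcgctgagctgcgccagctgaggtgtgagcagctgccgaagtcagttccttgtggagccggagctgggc
RBL1: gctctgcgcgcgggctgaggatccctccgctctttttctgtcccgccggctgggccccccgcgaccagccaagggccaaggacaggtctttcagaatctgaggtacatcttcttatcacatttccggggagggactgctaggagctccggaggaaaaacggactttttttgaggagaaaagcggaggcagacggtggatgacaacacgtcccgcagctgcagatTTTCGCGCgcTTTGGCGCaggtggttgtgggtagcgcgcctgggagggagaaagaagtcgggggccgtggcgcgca
RBL2: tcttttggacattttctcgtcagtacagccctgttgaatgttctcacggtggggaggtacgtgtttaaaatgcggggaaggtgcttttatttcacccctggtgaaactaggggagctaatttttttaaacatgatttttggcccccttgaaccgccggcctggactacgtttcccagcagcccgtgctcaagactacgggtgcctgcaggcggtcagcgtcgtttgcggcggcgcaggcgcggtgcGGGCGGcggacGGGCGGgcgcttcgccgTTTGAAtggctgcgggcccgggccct

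The window of CDKN1A held 4 GC boxes, at -104, -94, -45 and -40 bases from the start, the last pair sharing 1 base. RBL1 held E2F words at -26 and -16. RBL2 held GC boxes at -4 and 8 and the CHR word at 25. Windows not printed also held GC boxes, 1 in CDKN1B, 2 in CDKN2B and 3 in CDKN2D. Of the members, 9 had a window in the table, and CDKN1C had none. The E2F words TTTCGCGC, TTTGGCGC, TTTCCCGC and TTTGCCGC, on either strand, stood in 1 of 9 members and in 5.21% of 11344 promoters of tested genes. The CHR words TTTGAA and TTCGAA stood in 1 of 9 members and 11.6% of promoters, GGGCGG in 5 of 9 and 67.7%, and TATAAA in 0 of 9 and 6.27%, all searched on both strands. The windows of CDKN2A, CDKN2C and RB1 did not lie at the start of the canonical transcript, at distances of -20467, -9500 and 172699 bases, so they show another start of the gene. A word match describes the letters of the window and is not a measured site.

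The libraries held between 27277538 and 33237914 counts. Ribosomal RNA genes took 7.71% to 13.1% of the counts with siALDOA and 8.15% to 17.4% with siControl. ALDOA itself was lower in every siALDOA library, with 280 to 305 CPM (counts divided by the TMM-scaled library size) against 592 to 668 CPM in siControl and a log2 fold change of -1.13 (SE 0.060, adjusted p = 6.95e-11). Of 13 colorectal epithelial markers, 12 were tested, and LGALS4 was listed at 0 in every library. Their summed level was 9505 to 9842 CPM with siALDOA and 10080 to 10640 CPM with siControl. KRT8 and KRT18 made up most of the sum, with means of 5093 and 1910.5 CPM with siALDOA and 5595.1 and 2319.8 CPM with siControl. EPCAM, KRT19 and TFF3 had higher means with siALDOA, and the other tested epithelial markers had lower ones. At an adjusted p under 0.05 KRT19 was higher and KRT18 lower. Of 15 markers of blood, endothelial and stromal cells, 6 were tested, and all 15 summed to 35.8 to 37.0 CPM against 32.2 to 35.1 CPM, with CD14 higher and PECAM1 lower. CD3E and COL1A2 were at 0 in every library, and PTPRC had at most 1 count in any library. The part of these marker differences in the results below was not tested.

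CDKN1A was lower in siALDOA cells, whereas CDKN2C and RBL2 were higher, each at an adjusted p under 0.05 in edgeR's quasi-likelihood test. CDKN1A fell to 0.709 times the siControl level, CDKN2C rose to 1.45 times and RBL2 rose to 1.21 times. The other 7 members did not pass the threshold. Of the 10 members 3 were called, against 9.66% of all tested genes in either direction. Higher calls numbered 2, against 4.36% of all genes, and lower calls numbered 1, against 5.29%. The CPM of the groups did not overlap for 4 members, CDKN1B being the fourth, and for 27.7% of all genes. The median log2 fold change of the members was 0.14, beside 0.0016 over all genes. No test of the list as a whole was made. In RNA from whole cultures, fewer cells with a transcript and less of it per cell cannot be told apart.

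**Figure D1:**
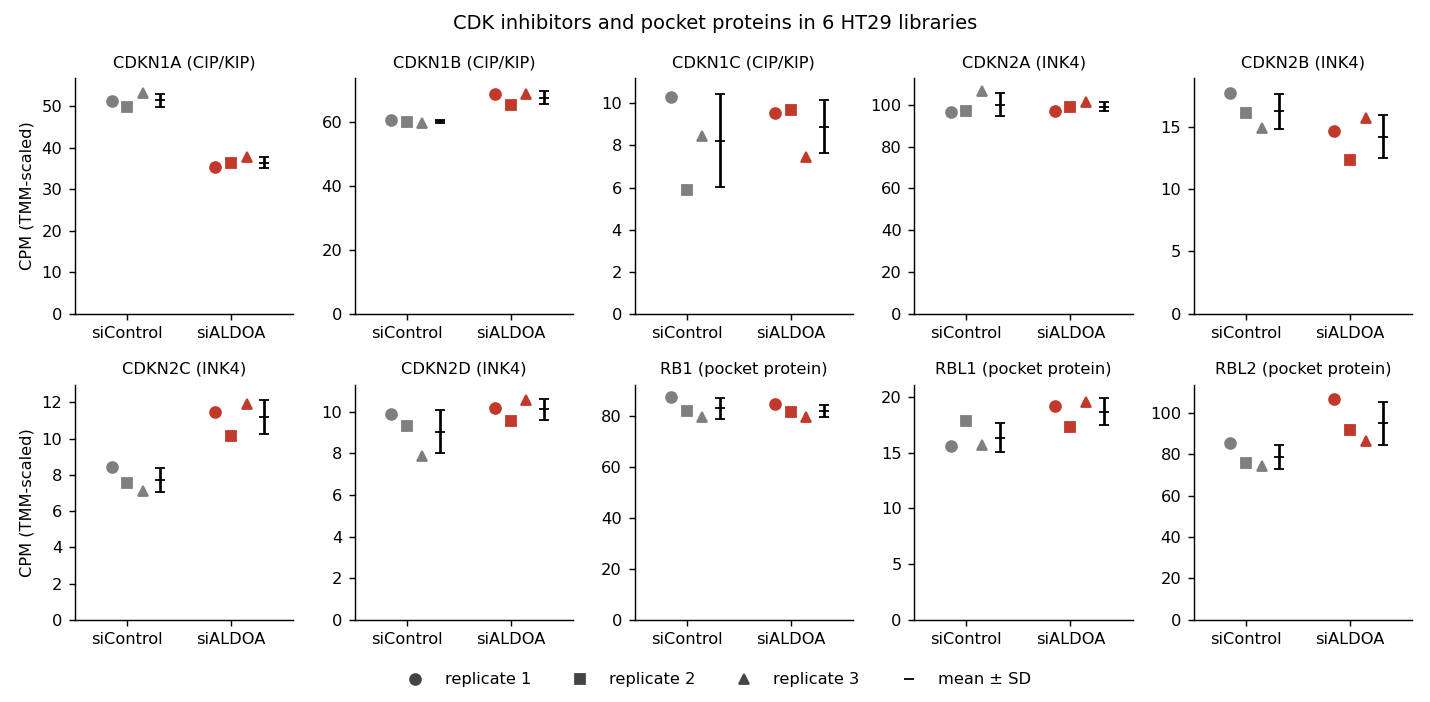
CPM (TMM-scaled, vertical axes from 0) of each member in the 3 siControl (grey) and 3 siALDOA (red) libraries, with the marker shape giving the replicate and the bars the mean ± SD. CDKN1A is lower in every siALDOA library, CDKN1B, CDKN2C and RBL2 are higher in every one, and the other 6 members overlap between the groups.

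Among the CIP/KIP inhibitors, CDKN1A changed. This gene (ENSG00000124762) lies at chr6:36676460-36687337 of hg38, and its product p21 blocks CDK2 complexes and binds PCNA. Its level was 35.2, 36.2 and 37.8 CPM in siALDOA replicates 1 to 3 and 51.2, 49.9 and 53.1 CPM in siControl replicates 1 to 3. The highest siALDOA library thus lay below the lowest siControl library, and the libraries of a group lay close together. Mean levels were 36.4 ± 1.31 CPM in the siALDOA group and 51.4 ± 1.61 CPM in the siControl group (SD, n = 3 each). On the log2 scale CDKN1A differed by -0.50 (SE 0.068, 95% interval -0.64 to -0.35, adjusted p = 5.02e-05), a fold of 0.709 (0.642 to 0.782). The values rest on 981 to 1089 counts per siALDOA library and 1523 to 1750 per siControl library. CDKN1A was called in each of the 16 alternative analyses, with log2 fold changes between -0.53 and -0.42. An exact permutation test on 3 against 3 libraries cannot give a two-sided p below 0.1. The antisense gene DINOL shares 146 exon bases with CDKN1A and had at most 1 count in any library.

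CDKN1B, which encodes p27, the inhibitor of cyclin E and cyclin A kinases, lies at chr12:12685498-12722369. It had 68.5, 65.1 and 68.8 CPM with siALDOA and 60.6, 59.9 and 59.6 CPM with siControl. All siALDOA libraries were above all siControl libraries, opposite in direction to CDKN1A. The difference on the log2 scale was 0.17 (SE 0.062, 95% interval 0.04 to 0.30), and it missed the threshold with an adjusted p = 0.0965 and an unadjusted p = 0.0136. It was called in 0 of the 16 alternatives, whose adjusted p ranged from 0.0644 to 0.265.

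CDKN1C, which encodes p57 and is imprinted, lies at chr11:2883213-2885775 and was low in these cells. Its values were 9.56, 9.68 and 7.46 CPM with siALDOA and 10.3, 5.90 and 8.47 CPM with siControl. The siControl libraries alone spanned the whole range of the siALDOA libraries. Its log2 fold change was 0.11 with a 95% interval of -0.24 to 0.47 (adjusted p = 0.742), and its sign turned to -0.08 without siControl replicate 2.

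Within each library, the ratio of CDKN1A to CDKN1B counts does not depend on the scaling between libraries. It was 0.515 to 0.557 with siALDOA and 0.834 to 0.891 with siControl, with means of 0.541 ± 0.0226 (SD, n = 3) and 0.856 ± 0.0301 (SD, n = 3). CDKN1B thus had more counts than CDKN1A in all 6 libraries, and the gap was wider in the siALDOA libraries. The summed CPM of the 3 CIP/KIP genes was 111 to 114 with siALDOA and 116 to 122 with siControl. Scaled by library totals only, the sums overlapped, at 112 to 119 and 110 to 125, so the separation of the groups depends on the scaling. These ratios and sums are given as a description, without a test.

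**Figure D2:**
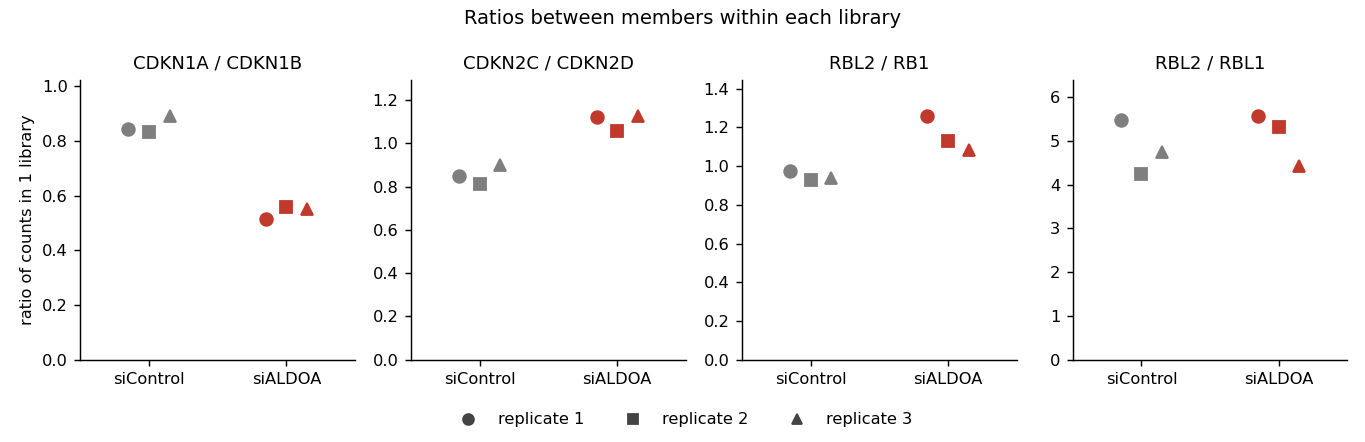
Ratio of the counts of 2 members within the same library (vertical axes from 0, no unit) for siControl (grey) and siALDOA (red), 1 point per library with its shape giving the replicate. CDKN1A over CDKN1B is 0.515 to 0.557 with siALDOA and 0.834 to 0.891 with siControl, CDKN2C over CDKN2D and RBL2 over RB1 are higher in the siALDOA libraries, and RBL2 over RBL1 overlaps.

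Among the INK4 inhibitors, CDKN2C rose while its 3 relatives did not pass the threshold. CDKN2C (ENSG00000123080) lies at chr1:50960745-50974634, and its product p18 holds CDK4 and CDK6 away from cyclin D. It had 11.5, 10.1 and 11.9 CPM with siALDOA and 8.40, 7.57 and 7.10 CPM with siControl. Every siALDOA library was above every siControl library. The means were 11.2 ± 0.924 CPM (SD, n = 3) and 7.69 ± 0.659 CPM (SD, n = 3). The log2 fold change was 0.54 (SE 0.13, 95% interval 0.28 to 0.80, adjusted p = 0.00846), a fold of 1.45 (1.21 to 1.74). The gene was low, with 305 to 339 counts per siALDOA library and 231 to 262 per siControl library. It was called in 15 of the 16 alternatives. The exception left out siControl replicate 3, with a log2 fold change of 0.48 and an adjusted p = 0.0555.

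CDKN2A, the locus of p16 and of p14ARF, a protein that acts on MDM2, was the inhibitor with the most counts. It lies at chr9:21967752-21995301, and the next gene of the locus, CDKN2B, begins 7601 bases away at chr9:22002903-22009305. CDKN2A had 97.3, 98.8 and 101.6 CPM with siALDOA and 96.7, 97.2 and 106.7 CPM with siControl. The groups overlapped and the means lay within 1 CPM of each other, 99.2 ± 2.17 (SD, n = 3) against 100.2 ± 5.68 (SD, n = 3). The log2 fold change was -0.01 with a 95% interval of -0.14 to 0.11 (adjusted p = 0.921), and its sign turned under library totals only (0.06) and without siControl replicate 3 (0.03). Counts per gene symbol cannot separate the transcripts of p16 and p14ARF. The antisense gene CDKN2B-AS1 shares 593 exon bases with CDKN2A, 15.3% of its exons, and had 51 to 96 counts per library (log2 fold change 0.38, adjusted p = 0.399). Whether counting used strand is not given in the sources used here.

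CDKN2B, which encodes p15, a target of TGF-beta signalling, had 14.7, 12.3 and 15.7 CPM with siALDOA and 17.7, 16.1 and 14.9 CPM with siControl. The groups overlapped, and the log2 fold change was -0.19 with a 95% interval of -0.43 to 0.04 (adjusted p = 0.315). CDKN2D, which encodes p19, lies at chr19:10566460-10569059 and had 10.2, 9.58 and 10.6 CPM against 9.91, 9.34 and 7.89 CPM. The siControl libraries reached into the siALDOA range, and the log2 fold change was 0.16 with a 95% interval of -0.10 to 0.43 (adjusted p = 0.478). The intervals of both genes include changes of the size seen for RBL2.

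The ratio of CDKN2C to CDKN2D counts, a pair of similar level, was 1.06 to 1.13 with siALDOA and 0.811 to 0.900 with siControl. CDKN2C thus had more counts than CDKN2D in each siALDOA library and fewer in each siControl library. Counts are not corrected for length, and the order of the pair depends on it. Per kb of canonical transcript the CDKN2C mean was above that of CDKN2D in siControl cells too, at 7.73 against 6.35 CPM. Per kb of all exons it was below in both groups, at 2.55 against 6.01 CPM with siControl and 3.70 against 6.73 CPM with siALDOA. This pair was chosen after its values were seen. The summed CPM of the 4 INK4 genes was 131 to 140 with siALDOA and 130 to 137 with siControl, and the groups overlapped.

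Among the pocket proteins, RBL2 rose. RBL2 (ENSG00000103479), which encodes p130, lies at chr16:53433977-53491648. Its level was 106, 91.8 and 86.2 CPM with siALDOA and 85.1, 75.9 and 74.4 CPM with siControl. The groups did not overlap, but the lowest siALDOA library and the highest siControl library were about 1 CPM apart. The means were 94.8 ± 10.46 CPM (SD, n = 3) and 78.5 ± 5.84 CPM (SD, n = 3). The log2 fold change was 0.27 (SE 0.076, 95% interval 0.12 to 0.43, adjusted p = 0.0257).

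The call on RBL2 depended on single libraries. It was lost without siALDOA replicate 1 (log2 fold change 0.18, adjusted p = 0.0999), siALDOA replicate 2 (0.30, adjusted p = 0.0505), siControl replicate 2 (0.25, adjusted p = 0.123) and siControl replicate 3 (0.24, adjusted p = 0.141). RBL2 was called in the other 12 of the 16 alternatives. In both groups, replicate 1 had the highest RBL2 level and the highest share of ribosomal RNA counts, 13.1% with siALDOA and 17.4% with siControl. In siControl replicates 2 and 3 the share was 15.3% and 8.15%, at 75.9 and 74.4 CPM of RBL2. In siALDOA replicates 2 and 3 it was 7.71% and 8.11%, at 91.8 and 86.2 CPM. With ribosomal RNA genes left out, edgeR gave RBL2 a log2 fold change of 0.27 (adjusted p = 0.0229). Whether RNA composition has a part in the RBL2 difference was not tested. The antisense neighbour AKTIP shares 609 exon bases with RBL2, 7.51% of its exons, and its log2 fold change was 0.00 (-0.0023, adjusted p = 0.990).

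RB1, the founding member of the family, lies at chr13:48303744-48599436 and did not pass the threshold. It had 84.6, 81.4 and 79.7 CPM with siALDOA and 87.4, 81.9 and 79.4 CPM with siControl. The siControl libraries enclosed the siALDOA libraries. For RB1 the log2 fold change was -0.02 with a 95% interval of -0.15 to 0.11 (adjusted p = 0.904), and it changed sign under library totals only (0.06) and without siControl replicate 1 (0.02) or siALDOA replicate 3 (0.0013). LPAR6 lies in an intron of RB1 on the other strand and shares no exon bases with it.

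RBL1, which encodes p107 and is itself an E2F target, lies at chr20:36996349-37095997. It had 19.1, 17.3 and 19.5 CPM with siALDOA and 15.6, 17.9 and 15.7 CPM with siControl. One library of each group crossed over, siALDOA replicate 2 lying below siControl replicate 2. RBL1 had a log2 fold change of 0.19 with a 95% interval of -0.02 to 0.40 (adjusted p = 0.258), and it was called in 0 of the 16 alternatives.

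The ratio of RBL2 to RB1 counts was 1.08 to 1.26 with siALDOA and 0.927 to 0.974 with siControl. RBL2 thus had more counts than RB1 in the siALDOA libraries alone. Per kb of all exons the RB1 mean stayed above that of RBL2 with siALDOA, at 12.7 against 11.7 CPM. This pair was also chosen after its values were seen. The ratio of RBL2 to RBL1 overlapped, at 4.41 to 5.56 and 4.25 to 5.47. The summed CPM of the pocket proteins was 185 to 210 with siALDOA and 169 to 188 with siControl, and the ranges overlapped. Scaled by library totals only they did not, at 193 to 208 and 168 to 176.

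**Figure D3:**
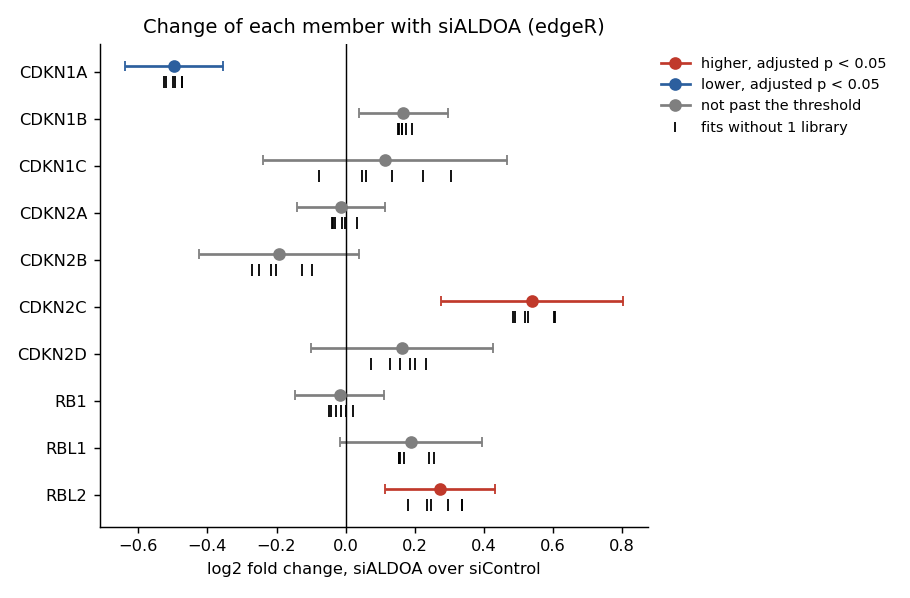
Log2 fold change of each member, siALDOA over siControl, from edgeR with its 95% interval (points and bars) and the values of the 6 fits that each leave out 1 library (ticks). CDKN1A (-0.50) lies left of 0 in all fits, CDKN2C (0.54) and RBL2 (0.27) lie right of 0 in all, and the ticks of CDKN1C, CDKN2A and RB1 fall on both sides of 0.

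Levels were compared between genes per kb of the canonical transcript. In siControl cells CDKN2A was highest, at 102 CPM per kb, followed by CDKN1B at 24.9, CDKN1A at 24.3, RB1 at 17.4 and RBL2 at 16.2 CPM per kb. CDKN2C followed at 7.73, CDKN2D at 6.35, CDKN1C at 4.64, CDKN2B at 4.22 and RBL1 at 2.88 CPM per kb. Over all 6 libraries, only CDKN2A and CDKN1B, and RBL2 and CDKN2C, were neighbours in this order whose ranges did not overlap. In siALDOA cells RBL2 had a mean of 19.5 CPM per kb, beside RB1 at 17.2 and CDKN1A at 17.2, whose range RBL2 overlapped, and CDKN2C was at 11.2 CPM per kb. The order depends on the length used. Over the union of all exons CDKN2A was at 25.8 CPM per kb in siControl cells, CDKN1A at 17.2, CDKN1B at 6.49 and CDKN2C at 2.55. In siALDOA cells RB1 was at 12.7, CDKN1A at 12.2 and RBL2 at 11.7. Of 3885 CDKN2A exon bases, 978 lie in its canonical transcript. By mean CPM the members stood between the percentiles 31.8 (CDKN1C) and 85.4 (CDKN2A) of all tested genes.

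**Figure D4:**
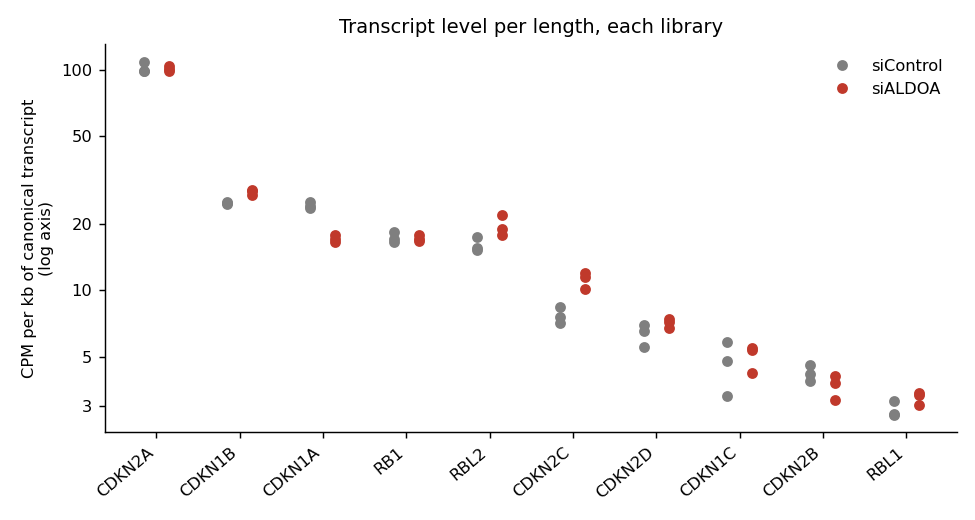
Level of each member in CPM per kb of its canonical transcript (log axis), 1 point per library, siControl in grey and siALDOA in red, ordered by the siControl mean. CDKN2A stands above all others at about 102 CPM per kb, RBL1 is lowest at 2.88 CPM per kb in siControl, and the points of CDKN1A and RBL2 overlap with siALDOA but not with siControl.

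The counts of the gene lists that follow stand beside 4.36% of all tested genes called higher and 5.29% called lower, and 7695 of 15307 genes with a positive log2 fold change. Counts at an unadjusted p under 0.05 stand beside 3616 of the 15307 genes in either direction. The kinases that the inhibitors act on, and their cyclins, were mostly not called. Of 17 tested cyclins and CDKs of G1 and S phase, CCND1 fell and 0 rose in edgeR, with 4 higher and 1 lower at an unadjusted p under 0.05 and 0 higher in DESeq2 and in limma-voom. In edgeR 1 gene was called higher under library totals only, with a replicate block and without siALDOA replicate 1 or 2. CCND1, which encodes cyclin D1, the partner of CDK4 and CDK6, had 172, 190 and 192 CPM with siALDOA and 210, 225 and 220 CPM with siControl. The groups did not overlap, and the log2 fold change was -0.24 (SE 0.059, adjusted p = 0.0122). Its call was lost without siControl replicate 2 (adjusted p = 0.0727), without siControl replicate 3 (adjusted p = 0.0692) and under library totals only (adjusted p = 0.255). CDK6, the kinase with the most counts, had a log2 fold change of 0.13 (adjusted p = 0.275). The median of the list was 0.13, and CCND2 and CCNA1 had too few counts to be tested.

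Of 17 tested E2F and DREAM partners of the pocket proteins, 0 passed in either direction in edgeR, DESeq2 or limma-voom, with 2 higher and 1 lower at an unadjusted p under 0.05. In edgeR 1 gene was called higher under library totals only, with a replicate block and without siALDOA replicate 3. TFDP1, which pairs with E2F proteins, had a log2 fold change of 0.02 (adjusted p = 0.857), and the histone chaperone RBBP4 one of 0.00 (0.0048, adjusted p = 0.970). The sign of both turned when 1 library was left out. The median of the list was 0.02, and E2F2 was not tested.

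Of 40 E2F target genes, 3 rose, 1 fell and 36 did not pass, and 32 of the values were positive, at a median of 0.11. The share called was close to the 9.66% of all tested genes, and 13 were higher and 2 lower at an unadjusted p under 0.05. TK1, thymidine kinase, rose by 0.25 on the log2 scale (adjusted p = 0.0162), GINS1, a part of the replicative helicase, by 0.25 (adjusted p = 0.0291) and RRM2, the small subunit of ribonucleotide reductase, by 0.19 (adjusted p = 0.0447). UNG, the uracil-DNA glycosylase, fell by 0.23 on the log2 scale (adjusted p = 0.0267). The calls depended on single libraries. No higher call was left without siALDOA replicate 3, siControl replicate 1 or siControl replicate 3, while 7 were made under library totals only and 8 with a replicate block. TK1 was lost without siALDOA replicate 2 or 3 or siControl replicate 1 or 3 (adjusted p = 0.0630 to 0.0896). GINS1 was lost in each fit without 1 library other than siALDOA replicate 2 (adjusted p = 0.0534 to 0.165). RRM2 was lost in each other than the fit without siALDOA replicate 1 (adjusted p = 0.0750 to 0.157) and with no filter on low counts (adjusted p = 0.0562). UNG was not called without siALDOA replicate 1 or 3, siControl replicate 2 or 3, or under library totals only, where its adjusted p was 0.0578 to 0.295. The abundant helicase subunits MCM4 and MCM7 had log2 fold changes of 0.10 (adjusted p = 0.351) and -0.04 (adjusted p = 0.785), and that of MCM7 turned under library totals only and without siALDOA replicate 1 or siControl replicate 2.

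Of 28 regulators of the inhibitor genes and proteins, KLF4 fell and 0 rose in edgeR, with 3 higher and 5 lower at an unadjusted p under 0.05. DESeq2 called 0 higher and 2 lower, limma-voom 0 higher and 1 lower, edgeR with a replicate block 1 higher and 2 lower, and edgeR with no filter on low counts 0 higher and 2 lower. KLF4, a transcription factor of the differentiated gut epithelium that activates CDKN1A, had 14.2, 16.1 and 16.6 CPM with siALDOA and 18.1, 20.7 and 21.4 CPM with siControl. Its groups did not overlap, and the log2 fold change was -0.36 (SE 0.10, adjusted p = 0.0279). The call was lost without siALDOA replicate 1 or 2, siControl replicate 2 or 3, or under library totals only, where its adjusted p was 0.0587 to 0.144. SP1, which binds GC boxes, had a log2 fold change of -0.13 (adjusted p = 0.184), and DDB1, part of a ubiquitin ligase, one of 0.08 (adjusted p = 0.396). MYC, which encodes a repressor of CDKN1A, is named outside the rule, after its values were seen, and had a log2 fold change of -0.18 (adjusted p = 0.0663). The median of the list was -0.01.

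Of 13 other CDK-inhibiting and CDK-binding proteins, 3 rose (4.36% over all genes) and 0 fell (5.29%) in edgeR, with 5 higher and 2 lower at an unadjusted p under 0.05. DESeq2 called 4 higher and 0 lower, and limma-voom 3 higher and 0 lower. In edgeR 1 gene was called lower with a replicate block and without siALDOA replicate 1. HEXIM2, which with 7SK RNA inhibits CDK9, had 14.7, 12.2 and 11.02 CPM with siALDOA and 8.79, 7.63 and 7.34 CPM with siControl. The groups did not overlap, and the log2 fold change was 0.67 (SE 0.13, adjusted p = 0.00199). CDK5RAP3, a binding partner of the CDK5 activator, had 112, 111 and 99.3 CPM against 83.4, 88.6 and 84.8 CPM, also without overlap, and rose by 0.32 (SE 0.063, adjusted p = 0.00191). Both were called in each of the 16 alternatives. HEXIM1 rose by 0.22 (adjusted p = 0.0270), a call lost without siALDOA replicate 2 or 3 or siControl replicate 1 or 2, where its adjusted p was 0.0613 to 0.112. The median of the list was 0.06.

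Of 16 proliferation genes, most of them of mitosis, 3 rose (4.36% over all genes) and 1 fell (5.29%), with a median of 0.08. TOP2A, topoisomerase II alpha, rose by 0.24 (adjusted p = 0.0122), and the spindle checkpoint kinases BUB1 and TTK rose by 0.33 (adjusted p = 0.0119) and 0.34 (adjusted p = 0.0464). CENPF, a kinetochore protein, fell by 0.32 on the log2 scale (adjusted p = 0.00244), a call lost under library totals only (adjusted p = 0.0623). Without siControl replicate 2 none of the 3 was called, TOP2A at an adjusted p = 0.0851, BUB1 at 0.0768 and TTK at 0.142. TOP2A was also lost without siControl replicate 3 (adjusted p = 0.0630), and TTK in each fit that left out 1 library, in limma-voom (adjusted p = 0.0540) and with no filter on low counts (adjusted p = 0.0529). MKI67, the gene of the Ki-67 antigen, was not called (log2 fold change 0.07, adjusted p = 0.548), and its sign turned without siALDOA replicate 3.

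**Figure D5:**
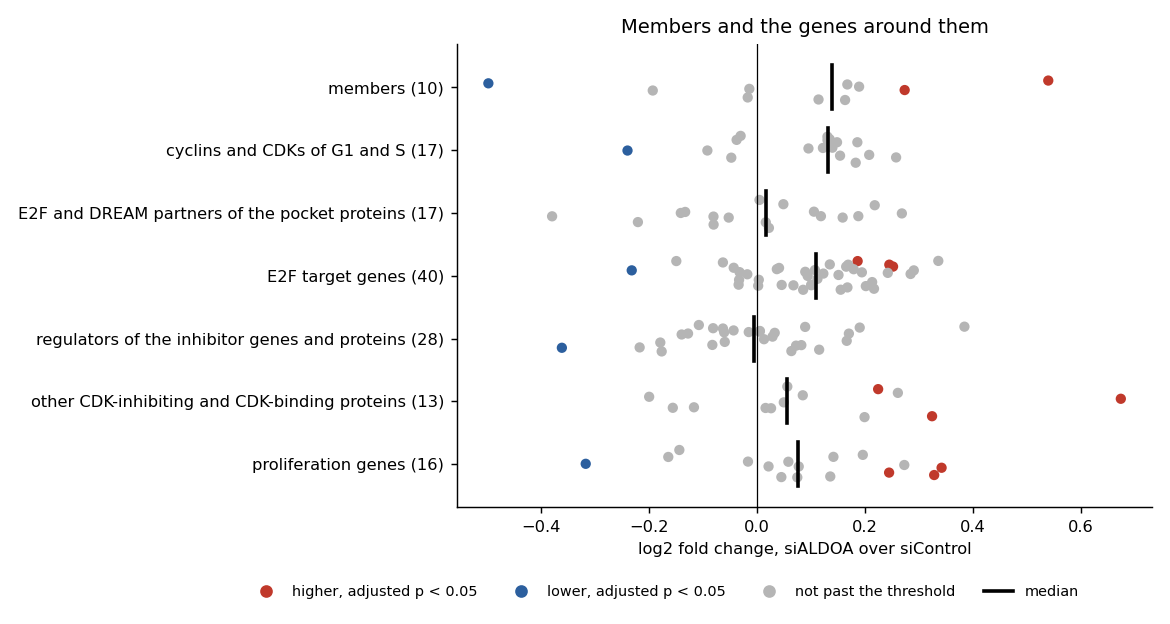
Log2 fold change, siALDOA over siControl, of each tested gene in the members and in 6 lists around them (number of tested genes in brackets), with genes at an adjusted p under 0.05 in red (higher) or blue (lower), the rest in grey, and the median as a bar. CDKN2C at 0.54 and HEXIM2 at 0.67 are the highest called genes, CDKN1A at -0.50 is the lowest, and the medians lie between -0.01 and 0.14.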

How the data were processed

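RNA-Seq counts of 6 HT29 libraries were analysed, grouped by the sample labels. Reads had been mapped to hg38 by the authors (tophat2) and counted per symbol (gfold), and the deposited values are raw counts. The annotation, the strand setting and the treatment of reads with several matches are not given in the sources used here, so overlapping genes may share reads. Genes were filtered with filterByExpr in edgeR 4.0.16 (R 4.3.3), scaled by TMM and tested with the quasi-likelihood test and Benjamini-Hochberg adjustment over 15307 genes, at a threshold of 0.05. The common biological coefficient of variation was 0.0766. Libraries held 27277538 to 33237914 counts, which sets the precision of genes of low level.

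The members and lists were chosen with earlier results of these data known. Named genes were ALDOA, the members, up to 4 called genes per direction in each list and the 2 with the highest mean CPM. Of the lists set up around the members, 1 is not reported here. Exons came from GENCODE release 44, and promoter windows from RefSeq (GRCh38.p14, 9 of 10 members matched). The scripts were tested on simulated data. Alternatives were DESeq2 1.42.0, limma-voom (limma 3.58.1), other scalings and filters, fits with a replicate block and fits without 1 library. Another left out ribosomal RNA genes, and its combination with library totals was added after the data were seen. Figures were drawn with matplotlib 3.10.9.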

Additional observations from a re-analysis of the deposited data

How the results depend on the processing

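CDKN1A was lower and called in all 16 alternatives. Leaving out each library in turn, the members called higher numbered 0 to 2, none being left without siControl replicate 3 and 1 without siALDOA replicate 1 or 2 or siControl replicate 2. The log2 fold change of CDKN2C was 0.48 to 0.61, of RBL2 0.18 to 0.34, of CDKN1C -0.0766 to 0.31, of CDKN2A -0.0394 to 0.0335 and of RB1 -0.0477 to 0.0225. Those of TFDP1 (-0.0210 to 0.0514), RBBP4 (-0.0138 to 0.0164), MCM7 (-0.13 to 0.0510) and MKI67 (-0.0036 to 0.12) also turned. Over all genes the higher calls were 359 to 644 and the lower calls 471 to 790, the fewest without siControl replicate 2 and siControl replicate 3. Under library totals only, which moved the median log2 fold change of all genes to 0.08, lower calls fell to 279, and CDKN2A (0.0569), RB1 (0.0572) and MCM7 (0.0348) turned positive and higher calls numbered 896. With ribosomal RNA genes also left out, an alternative added after the data were seen, the median was 0.01, calls numbered 735 higher and 760 lower, and CDKN2A (-0.0061), RB1 (-0.0094) and MCM7 (-0.0352) were negative. The causes of these changes were not tested.

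Deviations from the group means correlated at 0.0348, 0.0274 and 0.0262 between same-numbered libraries, and at -0.0457 to 0.0215 between differently numbered ones. The same-numbered values were small but the highest. The main fit did not take the numbers as pairs, and whether they are pairs is not known. The replicate block left the members at 2 higher and 1 lower (RBL2 adjusted p = 0.00112). Over all genes it gave 987 higher and 1175 lower, beside 668 and 810 in the main fit. Genes of low level limit the rest: the 95% intervals of CDKN1C, CDKN2B and CDKN2D reach 0.47, -0.43 and 0.43 on the log2 scale.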
